A study of Mus musculus with 59 samples.

Results

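The potassium channel genes are the 93 of 21706 measured genes whose symbol begins with Kcn followed by family letters and a number, without the antisense RNA Kcnq1ot1. The rule uses the name and no values, but it was set with earlier results of these data known. They comprise 30 voltage-gated pore-forming genes (Kcna, Kcnb, Kcnc, Kcnd, Kcnh and Kcnq), 10 silent modifier genes of such channels (Kcnf, Kcng, Kcns and Kcnv), 15 inward rectifiers (Kcnj), 14 K2P leak channels, whose subunits carry a pair of pore loops (Kcnk), 8 calcium- or sodium-activated channels (Kcnma, Kcnn, Kcnt and Kcnu) and 16 auxiliary subunits (Kcnab, Kcne, Kcnip and Kcnmb). RNA was sequenced from uterine tissue of 29 mated female mice of about 2 to 6 months. Control mice were Esr1f/-, that is, they had 1 floxed and 1 null copy of the oestrogen receptor alpha (ERα) gene Esr1. Knockout mice (epiERα-/-) were Esr1f/- and also carried Wnt7aCre/+, which deletes the floxed allele in epithelium, so that every animal, controls included, carried a null Esr1 allele, and stroma and muscle of both genotypes kept the floxed one. Females were mated with wild-type studs and taken at D0.5, the day on which the plug was found, or at D3.5. LE was luminal epithelium scraped from dispase-digested uterus, with 9 control against 7 knockout libraries at D0.5 and 4 against 6 at D3.5. U was whole uterus that had not been digested, with 6 and 4 libraries at D0.5 and 5 and 5 at D3.5, and DU was a piece of the digested uterus, with 4 and 3 libraries at D0.5 and 3 and 3 at D3.5. Each library of a tissue was a different mouse, and a number such as knockout 35 names the same mouse in every tissue.

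Potassium channels let potassium leave the cell and so set the membrane potential. In a secretory or absorptive epithelium they provide the electrical drive for chloride secretion through apical channels and for sodium uptake, and they recycle the potassium that the sodium pump brings in. In smooth muscle they hold back contraction, and changes in them accompany the shift of the uterus between quiet and active states. Oestrogen dominates the uterus around mating, progesterone rises over the following days, and luminal fluid is secreted under oestrogen and taken up again before the embryo attaches.

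Total estimated counts per library, in megacounts (M), lay between 13.5 and 80.3 M in LE, 11.3 and 108 M in U, and 14.1 and 46.2 M in DU, with medians of 19.3, 20.6 and 19.5 M. Levels are given as CPM, counts per M of the TMM-scaled library, within a tissue. Esr1 itself was at 34.8 to 62.9 CPM in knockout and 110 to 273 CPM in control LE at D0.5, and at 52.1 to 73.2 against 104 to 162 CPM at D3.5. Whole uterus also holds stroma and muscle, which keep the floxed allele, so Esr1 in U does not by itself show the genotype. In U at D3.5 Esr1 reached 212 CPM in the library labelled knockout 33, more than any of the 5 control libraries. Every direction drawn from U at D3.5 includes this library. Without it no channel gene was called by genotype in U at D3.5, as with it, and 21 were called by day in knockout U with it and 21 without. With it 25.5% of all genes were called by day in knockout U, and the share without it is not given here. The 9 epithelial marker genes summed to between 3271 and 14172 CPM in LE, against 536 to 8184 CPM in U. The 9 smooth muscle markers summed to between 41.8 and 282 CPM in LE, against 5979 to 17559 CPM in U, and the 7 stromal fibroblast markers to between 578 and 6327 CPM in LE, against 10905 to 24657 CPM in U. In bulk samples such as these, fewer cells of a type and less RNA per cell cannot be told apart.

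After the filter on low counts 57 of the 93 genes could be tested in LE, 75 in U and 75 in DU. A mean of at least 1 TPM, a level per transcript length, was reached by 22 of them in LE, 39 in U and 42 in DU. In control LE the leak channel Kcnk1 took 55.8% of the summed TPM of all 93 genes, with a mean of 172 TPM over the 13 control libraries. The next were Kcnn4, the intermediate-conductance calcium-activated channel of secretory epithelia, at 22.8 TPM, the auxiliary subunit Kcne3 at 22.7 TPM, its partner pore Kcnq1 at 21.2 TPM, the leak channel Kcnk5 at 14.3 TPM and the fast voltage-gated channel Kcnc2 at 8.24 TPM. This order pools 9 libraries of D0.5 with 4 of D3.5. At D0.5 the same 6 genes led, with Kcnq1 before Kcne3 (28.5 and 22.5 TPM), whereas at D3.5 Kcnk1 (140 TPM) was followed by Kcne3, the mechanosensitive leak channel Kcnk4 and Kcnk5 (23.3, 21.9 and 19.8 TPM), and Kcnn4, Kcnq1 and Kcnc2 were not among the first 6. In control U Kcnk1 also led, at 56.6 TPM and 18.4% of the sum. It was followed there by Kcnj8, a pore of ATP-sensitive channels in vascular cells, at 28.5 TPM, Kcnh2, the ERG channel of uterine muscle, at 15.9 TPM, the auxiliary subunit Kcne4 at 12.7 TPM, Kcnn4 at 12.0 TPM and Kcnip3, a calcium-binding Kv4 partner, at 11.8 TPM. Control DU had the same 4 leaders, Kcnk1 at 56.7, Kcnj8 at 28.3, Kcnh2 at 18.6 and Kcne4 at 15.2 TPM, then the silent modifier Kcng1 at 14.2 TPM.

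Control LE was set against control U over both days to see which channel genes were higher in the epithelial layer. Of 78 tested channel genes 9 were higher and 44 lower in LE, 67.9% of those tested. Of all 16665 genes 57.8% were called, 26.5% higher and 31.3% lower. The median log2 fold change was -1.60 over the channel genes and -0.05 over all genes. By class, all 8 calcium- or sodium-activated genes were lower, as were 16 of 26 voltage-gated pores, 9 of 13 auxiliary subunits, 4 of 12 inward rectifiers, 4 of 8 silent modifiers and 3 of 11 leak channels, whereas 4, 1, 0, 2 and 2 genes of the last 5 classes were higher. Kcnn4 and Kcna7 were called lower in the fit although their means over all libraries were higher in LE (38.1 against 19.8 and 0.631 against 0.366 CPM).

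Kcnk1 was the called gene of smallest adjusted p among those higher in LE. Its mean was 297 CPM in control LE and 95.4 CPM in control U, with no overlap between the libraries (log2 fold change 2.14 ± 0.14 SE, edgeR adjusted p = 1.69e-16). The others named by the same order were Kcnk5 (1.33 ± 0.18), Kcnc2 (2.10 ± 0.37), Kcne3 (1.75 ± 0.38) and Kcnq1 (1.20 ± 0.18), whose libraries overlapped between the tissues. Kcnq1 was not called on the TPM values (log2 difference 0.30, limma adjusted p = 0.169). Other genes were far lower in LE. Kcnmb1, the beta subunit of smooth muscle BK channels, was at 0.375 CPM in LE and 30.4 CPM in U (log2 -5.96 ± 0.33, edgeR adjusted p = 2.68e-18), and Kcnh2 at 0.422 and 44.2 CPM (log2 -6.30 ± 0.46). Kcnip3 and Kcnj8 were lower by log2 -4.66 and -5.06, and none of these 4 had overlapping libraries. For Kcnn4 the order of the tissue means was not the same on both days, with 54.6 CPM in LE and 31.4 CPM in U at D0.5 but 1.04 and 5.96 CPM at D3.5. Its fitted value, in which the log levels of both days weigh equally, was lower in LE (log2 -0.54 ± 0.21, edgeR adjusted p = 0.027), while the mean over all libraries was higher there (38.1 against 19.8 CPM). That call was lost without any of 5 libraries (LE control 16 and U control 8, 12, 14 and 16), with adjusted p values up to 0.0926. RNA of each tissue was isolated as 1 batch, so that the tissue and the batch of isolation cannot be told apart. LE also came from dispase-digested uterus and U did not, so layer and digestion cannot be told apart in this comparison.

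**Figure D1:**
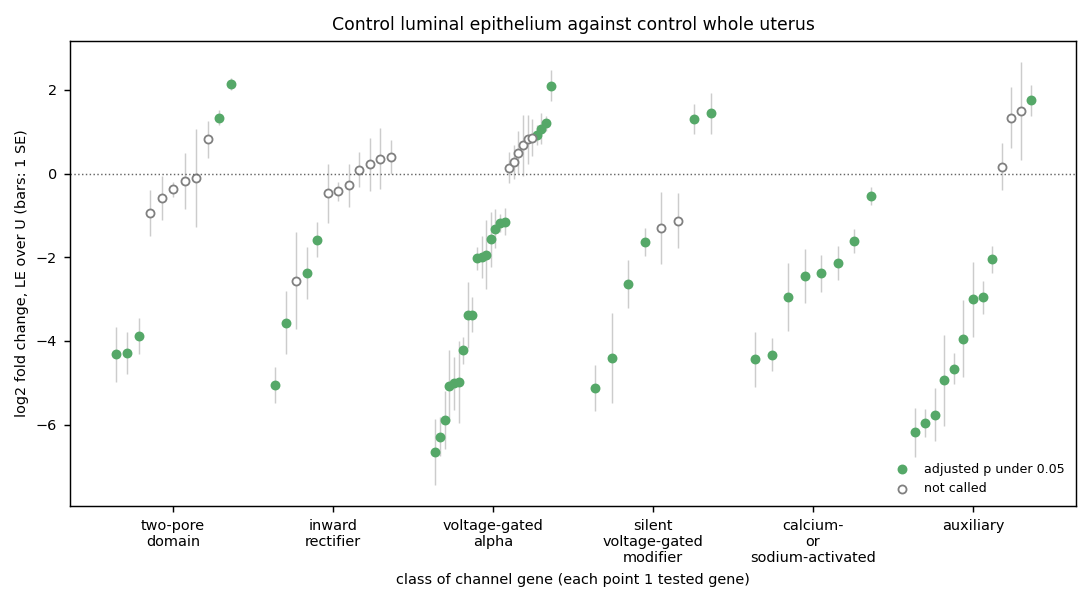
Log2 fold change of each of the 78 tested potassium channel genes in control LE over control U (vertical axis), by class of channel (horizontal axis); bars are 1 standard error, filled points have an adjusted p under 0.05. All 8 calcium- or sodium-activated genes lie below 0, and the highest leak channel is Kcnk1 at 2.14.

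Loss of epithelial ERα was examined first in LE at D0.5. Here 9 channel genes were higher and 6 lower in knockout LE, 26.3% of the 57 tested. Of all 15601 genes 23.6% were called, 10.9% higher and 12.6% lower. The higher genes were inward rectifiers in 4 of 9 tested cases (Kcnj2, Kcnj15, Kcnj11 and, at log2 2.00 ± 0.62, Kcnj8) and no inward rectifier was lower. The Kcnj8 call was lost without knockout 23 (adjusted p = 0.0579). The lower genes were the leak channels Kcnk1, Kcnk5 and Kcnk6, with Kcnq1, Kcnc2 and Kcne1. Of these 4 are among the 6 leading genes of control LE, of which Kcnn4 and Kcne3 were not called (edgeR adjusted p = 0.0612 and 0.403). That list was ranked on control levels that include the control libraries compared here. A high control level favours a lower call in knockout, so the overlap is no separate result. The median log2 fold change was 0.22 over the channel genes and -0.01 over all genes.

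Kcnj2, a classical strong inward rectifier that stabilises the resting potential, had 2.73, 4.98 and 6.92 CPM as its lowest, median and highest control library and 11.4, 23.6 and 36.2 CPM in knockout. Every knockout library lay above every control library, and the gene rose by log2 2.36 ± 0.28 (edgeR adjusted p = 6.52e-07). Kcnj15, another inward rectifier, had 0.0587, 0.521 and 2.54 CPM in control and 1.83, 6.59 and 13.2 CPM in knockout. Control 9 overlapped the lowest knockout libraries, and the gene rose by log2 3.50 ± 0.58 (edgeR adjusted p = 5.96e-05). Kcnj11, the pore of ATP-sensitive channels that pairs with the sulphonylurea receptor Abcc8, went from 0, 0.318 and 2.03 CPM to 1.32, 4.67 and 13.3 CPM (log2 3.13 ± 0.83, edgeR adjusted p = 0.00758).

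Among voltage-gated genes Kcnc4, of the fast Kv3 type, had 0.162, 0.764 and 3.12 CPM in control and 2.65, 4.02 and 7.20 CPM in knockout (log2 1.99 ± 0.48, edgeR adjusted p = 0.00303). Kcnh1, an ether-a-go-go channel, was at 0.217 CPM on average in control and 2.16 CPM in knockout, with a knockout library at 0 (log2 3.36 ± 0.85, edgeR adjusted p = 0.00463). The silent modifier Kcns3 was at 0.739 and 2.38 CPM (log2 1.70 ± 0.49, edgeR adjusted p = 0.0118), a call that was lost without knockout 23 (adjusted p = 0.0542). Apart from Kcnj2, the control means of the genes named here as higher were 1.17 CPM or lower.

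Of 6 tested leak channels 3 were lower and 1 was higher. Kcnk6, a relative of Kcnk1, had 27.2, 34.0 and 46.4 CPM in control and 7.46, 10.9 and 16.5 CPM in knockout, with no overlap (log2 -1.67 ± 0.24, edgeR adjusted p = 8.36e-06). Kcnk5, an acid-sensitive leak channel of transporting epithelia, had 19.8, 34.8 and 69.7 CPM in control and 11.7, 16.9 and 20.7 CPM in knockout, overlapping only at the lowest control library (log2 -1.21 ± 0.23, edgeR adjusted p = 0.000324). Kcnk1 had 183, 340 and 409 CPM in control and 127, 194 and 243 CPM in knockout (log2 -0.78 ± 0.16, edgeR adjusted p = 0.000751). The only control library among the knockout values was control 2. Kcnk4, low on this day, was higher, at a mean of 0.262 CPM in control and 0.785 CPM in knockout (log2 1.61 ± 0.54, edgeR adjusted p = 0.0314), a call lost without control 4, control 6, knockout 24 or knockout 25 (adjusted p from 0.0587 to 0.0989). Kcnk2 and Kcnk7 were not called (log2 1.05 and 0.90).

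Kcnc2, the Kv3-type channel that was sixth in control LE, had 11.8, 39.5 and 78.3 CPM in control and 2.18, 6.87 and 15.4 CPM in knockout (log2 -2.60 ± 0.46, edgeR adjusted p = 0.000151). Kcnq1 had 31.3, 60.9 and 84.6 CPM in control and 19.0, 36.5 and 55.4 CPM in knockout (log2 -0.74 ± 0.23, edgeR adjusted p = 0.0199). That call was lost without knockout 22 or knockout 24 (adjusted p = 0.0505 and 0.0503). Kcne1, a small subunit that slows the Kcnq1 channel, was at 2.66 ± 2.85 CPM (SD, n = 9) in control and 0.512 ± 0.36 CPM (SD, n = 7) in knockout (log2 -2.38 ± 0.84, edgeR adjusted p = 0.0399), and lost its call when any of 9 libraries was left out (adjusted p up to 0.0888). Kcnn4 was at 54.6 CPM in control and 35.9 CPM in knockout and was not called (edgeR adjusted p = 0.0612). Kcnq1ot1, which overlaps Kcnq1 on the other strand, was not analysed here, and whether the counting used strand is not stated in those sources.

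Markers of other cells moved with these results in LE at D0.5. The 7 neutrophil markers were all higher in knockout, with sums of 979 to 3766 CPM against 3.64 to 422 CPM in control, and 5 of 6 macrophage markers were higher, with sums of 47.3 to 94.7 against 10.8 to 80.6 CPM. Of the 9 epithelial markers 6 were lower, and 2 of 3 tested gland markers were higher, with sums of 148 to 471 against 129 to 214 CPM. The part of these cells in the channel results was not tested.

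At D3.5, 8 channel genes were higher and 2 lower in knockout LE, 17.5% of the 57 tested, beside 13.5% of all 15601 genes (7.79% higher and 5.7% lower). The medians were 0.01 over the channel genes and -0.01 over all genes. Kcnn4 and Kcnq1, which were not higher in knockout LE at D0.5, were higher at D3.5, and Kcnk5 was lower on both days.

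Kcnn4 was at 1.00, 1.01, 1.84 and 0.304 CPM in the 4 control libraries, and at 4.24, 5.94 and 9.94 CPM as the lowest, median and highest of the 6 knockout libraries. The groups did not overlap (log2 2.54 ± 0.35, edgeR adjusted p = 1.66e-05). Kcnq1 was at 8.81, 13.3, 10.7 and 11.8 CPM in control and at 27.8, 39.9 and 67.1 CPM in knockout, again with no overlap (log2 1.93 ± 0.32, edgeR adjusted p = 0.000136). Its subunit Kcne1 had 3 counts in the 4 control libraries together, all in control 14, and 0.127, 3.00 and 10.5 CPM in knockout. The ratio of the counts pooled over each group, scaled by the pooled library sizes, was 99.9 (edgeR adjusted p of the gene = 0.00331). Its 95% counting interval of 34.0 to 486 covers counting error only. The size of this ratio rests on control 14, without which the controls hold no Kcne1 count and the fitted log2 fold change goes from 6.55 to 9.57 (adjusted p = 0.0057).

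Kcna2, a Shaker-type voltage-gated channel, was at 0.0436, 0, 0.967 and 1.14 CPM in control and at 1.27, 7.71 and 21.2 CPM in knockout, with no overlap (log2 4.06 ± 0.99, edgeR adjusted p = 0.00623; 4.69 without control 16). Kcnh1 was at 0.349, 0.917, 0.599 and 1.44 CPM in control and at 1.37, 7.59 and 26.5 CPM in knockout, which overlapped at their edges (log2 3.67 ± 1.15, edgeR adjusted p = 0.0322). Its call was lost without any of the 4 controls, knockout 35 or knockout 36, with adjusted p values from 0.0526 to 0.0951. Kcnmb4, a beta subunit of BK channels, had no counts in the 4 controls and a mean of 0.655 CPM in knockout, at least 17.4-fold higher against a floor of 3 counts over the control group (edgeR adjusted p = 0.00853). Kcna7 and Kcnj11, both also called, had no counts in control LE at D3.5 and were at least 7.27-fold and 12.5-fold higher. These bounds and that of Kcnmb4 cover counting error only, not the spread between mice. The Kcnmb4 and Kcnj11 groups overlapped. The fitted Kcnj11 value went from log2 6.46 to 4.86 without knockout 36. The Kcnj11 call was lost without any of the 4 controls or knockout 36 (adjusted p from 0.0735 to 0.129), and the fitted Kcna7 value went from log2 5.73 to 4.98 without knockout 35 and was still called. Kcnmb4 was called in 22 refits with 1 library left out and did not pass the filter on low counts in the other 4. At D0.5 its means were 0.0404 CPM in control and 0.0253 CPM in knockout LE. It thus passed the filter only through the knockout libraries of D3.5, the group in which it is high. Its call, counted among the 8 higher genes of D3.5, is therefore no independent result.

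The lower genes were Kcnk5, at 32.8, 77.4, 55.1 and 47.5 CPM in control and 10.2, 18.2 and 27.9 CPM in knockout (log2 -1.51 ± 0.28, edgeR adjusted p = 0.000622), and the mechanosensitive leak channel Kcnk4, at 7.24, 6.15, 8.84 and 13.7 CPM in control and 0.560, 1.55 and 3.60 CPM in knockout (log2 -2.27 ± 0.63, edgeR adjusted p = 0.0157). Neither had overlapping groups. The Kcnk4 call was lost without control 16 (adjusted p = 0.06). Kcnj2, at 3.66, 3.39, 5.62 and 9.18 CPM in control and 1.58, 4.28 and 7.26 CPM in knockout, overlapped and was not called (log2 -0.28 ± 0.35, edgeR adjusted p = 0.675). Kcnk1, at means of 230 CPM in control and 155 CPM in knockout, was not called either (log2 -0.57 ± 0.20, edgeR adjusted p = 0.062).

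Knockout 35, 36 and 37 carried the highest Kcne1, Kcna2 and Kcnh1 values in LE at D3.5. Without these 3 mice 5 of 58 tested channel genes were called, 3 higher and 2 lower, and 7.18% of all genes. Kcnn4 (log2 2.22, edgeR adjusted p = 0.000526), Kcnq1 (1.44, 0.0063), Kcnk5 (-1.38, 0.0256), Kcnk4 (-3.63, 0.0064) and Kcna7 (adjusted p = 0.031) were still called. Kcne1 (log2 3.99, adjusted p = 0.0845), Kcna2 (2.94, 0.0995), Kcnh1 (1.32, 0.579) and Kcnj11 (adjusted p = 0.304) were not, and Kcnmb4 did not pass the filter on low counts. Leaving out the mice with the highest Kcne1, Kcna2 and Kcnh1 values favoured the loss of these 3 calls, which is no separate result. The refit also had fewer knockout libraries. None of the 7 neutrophil markers was called in LE at D3.5, with sums of 4.07 to 19.0 CPM in knockout and 3.04 to 9.15 CPM in control, and 2 of 3 tested gland markers were higher, with sums of 47.0 to 154 against 11.5 to 22.5 CPM. Erythroid marker sums were 28.9 to 475 CPM in knockout and 505 to 2688 CPM in control, while macrophage sums overlapped (41.0 to 248 against 49.6 to 205 CPM). Macrophage sums were 115 to 248 CPM in knockout 35, 36 and 37 and 41.0 to 82.5 CPM in knockout 31, 32 and 34. Erythroid sums of the same mice were 28.9 to 156 and 324 to 475 CPM. The part of gland, erythroid and macrophage cells in these results was not tested.

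**Figure D2:**
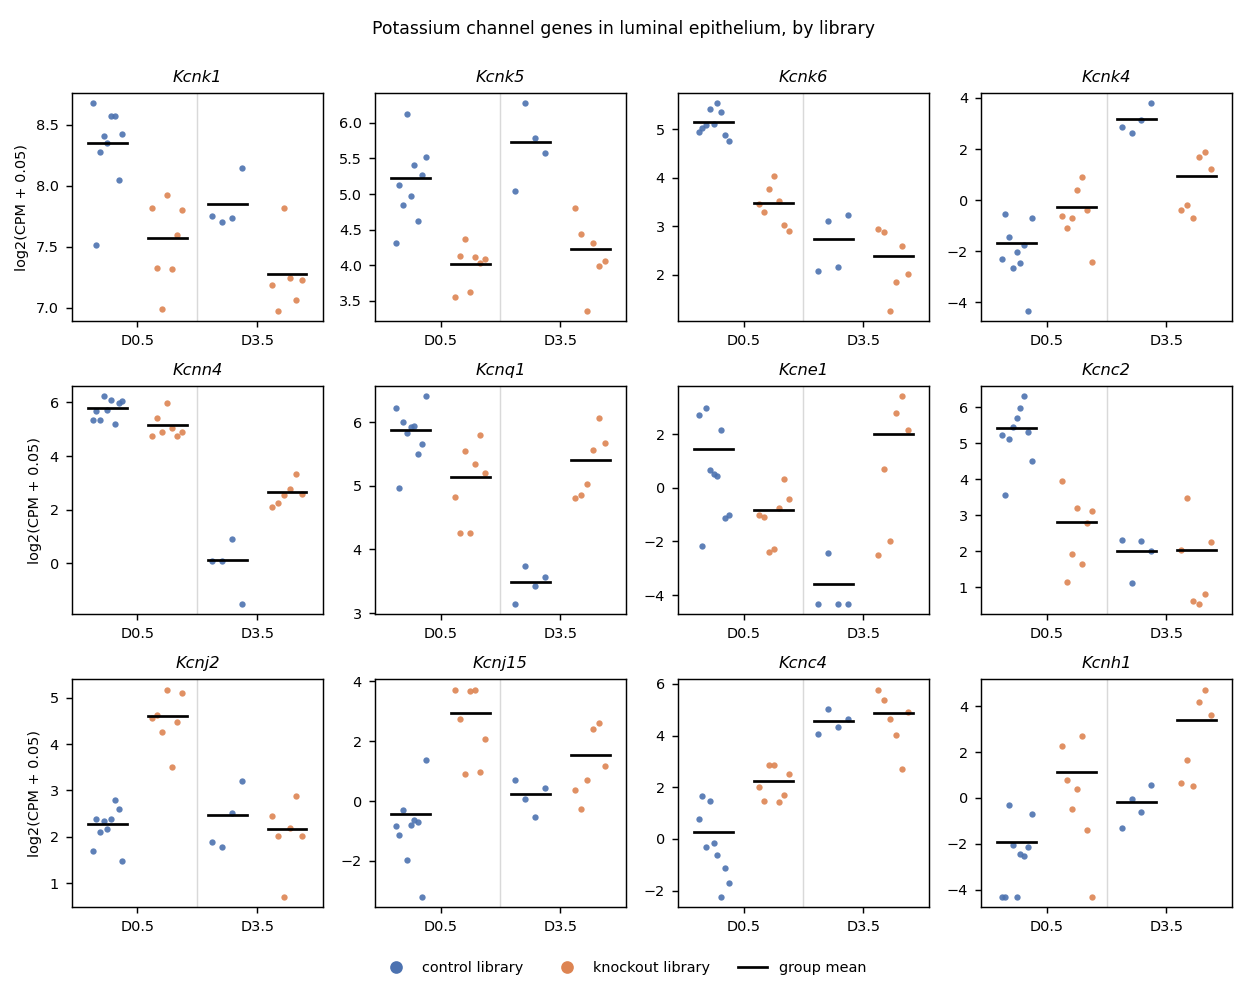
Levels of 12 potassium channel genes in LE as log2(CPM + 0.05) (vertical axis) by day and genotype (horizontal axis); each point is 1 library and each bar the group mean. Kcnj2 knockout libraries at D0.5 (11.4 to 36.2 CPM) all lie above control, and at D3.5 the control means of Kcnn4 and Kcnq1 are 1.04 and 11.2 CPM beside knockout means of 6.26 and 42.4 CPM.

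Whether the knockout effect differed between days in LE was tested as an interaction. It was called for 12 of 57 channel genes, 21.1%, with 8 of them more positive and 4 more negative at D3.5 than at D0.5, beside 16.5% of all genes (9.52% more positive and 6.99% more negative). The difference of the effects was 3.14 ± 0.42 on the log2 scale for Kcnn4 (edgeR adjusted p = 9.71e-06) and 2.67 ± 0.39 for Kcnq1 (edgeR adjusted p = 2.89e-05). It was 2.65 ± 0.74 for Kcnc2, which was lower in knockout at D0.5 and at 3.94 CPM in control and 4.08 CPM in knockout at D3.5 (edgeR adjusted p = 0.0133; 2.04 without knockout 32, adjusted p = 0.0362). It was 1.31 ± 0.38 for Kcnk6 (edgeR adjusted p = 0.0167), which was called lower in knockout at D0.5 and was not called at D3.5 (log2 -0.36 ± 0.29). Kcne1, Kcna7 and Kcnmb4 also had positive differences (edgeR adjusted p = 0.00059, 0.0105 and 0.0255), against control groups of 3, 0 and 0 counts, and the Kcnmb4 call was lost without control 2 (adjusted p = 0.0579). Kcnmb4 passed the filter only through knockout LE at D3.5, so its call here is no independent result. The fitted differences of Kcne1 and Kcna7 went from 8.93 to 11.9 without control 14 and from 5.41 to 4.65 without knockout 35, both still called. For Kcna2 it was 3.33 ± 1.15 (edgeR adjusted p = 0.0472), a call lost without any of 17 of the 26 LE libraries (adjusted p up to 0.0988) and with median-of-ratios size factors (0.0537). The difference was negative for Kcnj2 (-2.64 ± 0.44, edgeR adjusted p = 0.000147), Kcnk4 (-3.88 ± 0.83), Kcnk2 (-3.04 ± 0.88) and the vascular Kcnj8 (-3.07 ± 0.96). Kcnk2 and Kcnj8 reached at most 1.37 and 8.35 CPM in any LE library and were not called without knockout 35, 36 and 37 (adjusted p = 0.0934 and 0.0776), and Kcnj8 was also not called without control 16 or without knockout 23 (0.0711 and 0.0537). For Kcnk5 the difference was -0.30 ± 0.37 and for Kcnk1 0.21 ± 0.26, neither called (edgeR adjusted p = 0.639 and 0.643).

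Between D0.5 and D3.5 the channel genes of control LE turned over in both directions. There were 12 higher and 12 lower at D3.5, 42.1% of those tested, beside 44% of all genes (21.2% higher and 22.8% lower). Kcnn4 fell from 54.6 to 1.04 CPM (log2 -5.67 ± 0.39, edgeR adjusted p = 1.09e-11), Kcnq1 from 58.7 to 11.2 CPM (log2 -2.39 ± 0.31), Kcnk6 from 35.5 to 6.65 CPM (log2 -2.42 ± 0.31) and Kcnc2 from 42.5 to 3.94 CPM (log2 -3.43 ± 0.62). Kcna7 fell from 0.912 CPM to no counts, at least 24.2-fold lower. Kcnk1 also fell, from 326 to 230 CPM (log2 -0.50 ± 0.19, edgeR adjusted p = 0.0369). Kcnn4, Kcnq1, Kcnc2 and Kcnk1 are among the 6 leading channel genes of control LE. That list was ranked mostly on the D0.5 libraries compared here, so a fall of its genes was favoured by the choice. Kcnk4, Kcnc4 and Kcnf1, among the first 6 when ranked at D3.5 alone, were higher at D3.5. Of the other leading genes of the pooled list, Kcnk5 and Kcne3 were not called (edgeR adjusted p = 0.117 and 0.808).

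Genes that were low in control LE at D0.5 rose. Kcnk4 went from 0.262 to 8.99 CPM (log2 5.12 ± 0.61, edgeR adjusted p = 1.27e-07), Kcnc4 from 1.17 to 23.6 CPM (log2 4.31 ± 0.54), the delayed rectifier Kcnb2 from 0.916 to 14.4 CPM (log2 3.93 ± 0.70), the silent modifier Kcnf1 from 2.13 to 20.4 CPM (log2 3.26 ± 0.51, but 2.24 without control 14, adjusted p = 0.0006) and Kcnj8 from 0.424 to 5.06 CPM (log2 3.58 ± 0.69). All of these had an edgeR adjusted p of 0.00012 or lower. The control day groups of these 5 genes did not overlap. Of 6 endothelial markers 4 were higher at D3.5 in control LE, with sums of 36.5 to 138 CPM against 5.52 to 56.7 CPM, 4 of 6 macrophage markers were higher, and all 5 erythroid markers were higher, with sums of 505 to 2688 against 8.88 to 111 CPM. Of 7 neutrophil markers 5 were lower. The part of these cells in the day differences was not tested.

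The knockout LE libraries entered both the comparisons by genotype and that by day. Between the days 10 channel genes were higher and 7 lower at D3.5, 29.8% of those tested, beside 41.6% of all genes (21.4% higher and 20.2% lower). Kcnn4 fell from 35.9 to 6.26 CPM (log2 -2.52 ± 0.28, edgeR adjusted p = 4.74e-08), and Kcnj2 fell from 24.5 to 4.47 CPM (log2 -2.45 ± 0.32, edgeR adjusted p = 7.83e-07), a gene whose control levels of 4.77 and 5.46 CPM were not called different (edgeR adjusted p = 0.675). Kcnk6 and Kcnj16 also fell (log2 -1.11 and -3.03). Kcnc4, Kcna2, Kcnb2, Kcnmb4 and Kcnf1 rose by log2 2.63, 3.81, 3.22, 4.47 and 1.99. Single libraries moved Kcnj16 to -3.70 (without knockout 32) and Kcnmb4 to 5.20 (without knockout 25), both still called. Kcnmb4 passed the filter only through knockout LE at D3.5, so its rise was favoured by the filter. Kcnq1 was at 35.1 and 42.4 CPM and was not called (edgeR adjusted p = 0.408). In these knockout LE libraries the neutrophil marker sums were 979 to 3766 CPM at D0.5 and 4.07 to 19.0 CPM at D3.5. The part of neutrophils in these day differences, those of Kcnj2 and Kcnn4 included, was not tested.

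Promoter sequences were looked up in RefSeq on GRCm38.p6, from 250 bases before to 50 bases after the start, for the genes these LE results turn on. An entry was matched for 68 of the 93 channel genes, with 93 promoters among them. The consensus oestrogen response element GGTCANNNTGACC was found on either strand in none of these 93 promoters and in 0.07% of all 32851 promoters, and its half-site GGTCA, which is part of the full element, in 28% of them (24 genes) and in 40.5% of all. A match is a run of letters, not a bound site. The promoters of 4 genes are shown because these move with genotype in LE, Kcnk5 lower in knockout on both days, Kcnk1 lower at D0.5, Kcnj2 higher at D0.5 and Kcnn4 higher at D3.5. Half-sites are in capitals.
Kcnk1, chr8:125994852-125995151, plus strand: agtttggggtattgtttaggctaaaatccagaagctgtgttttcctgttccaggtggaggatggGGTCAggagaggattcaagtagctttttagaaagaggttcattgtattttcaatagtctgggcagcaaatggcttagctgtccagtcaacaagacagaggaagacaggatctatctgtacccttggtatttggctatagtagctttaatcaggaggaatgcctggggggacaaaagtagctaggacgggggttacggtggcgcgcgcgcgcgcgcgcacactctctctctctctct
Kcnk5, chr14:20181733-20182032, minus strand: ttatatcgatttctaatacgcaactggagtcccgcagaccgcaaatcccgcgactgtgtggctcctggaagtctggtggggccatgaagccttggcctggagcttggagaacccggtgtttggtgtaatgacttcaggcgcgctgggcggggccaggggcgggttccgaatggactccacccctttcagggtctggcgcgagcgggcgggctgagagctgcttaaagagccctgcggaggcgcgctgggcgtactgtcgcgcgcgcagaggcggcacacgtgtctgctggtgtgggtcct
Kcnj2, chr11:111065914-111066213, plus strand: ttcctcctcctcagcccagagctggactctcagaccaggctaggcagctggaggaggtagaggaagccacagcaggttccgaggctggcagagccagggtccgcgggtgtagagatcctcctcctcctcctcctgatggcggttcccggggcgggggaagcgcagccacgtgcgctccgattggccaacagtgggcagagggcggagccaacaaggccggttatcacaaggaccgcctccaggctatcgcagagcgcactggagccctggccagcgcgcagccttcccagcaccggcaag
Kcnn4, chr7:24370013-24370312, plus strand: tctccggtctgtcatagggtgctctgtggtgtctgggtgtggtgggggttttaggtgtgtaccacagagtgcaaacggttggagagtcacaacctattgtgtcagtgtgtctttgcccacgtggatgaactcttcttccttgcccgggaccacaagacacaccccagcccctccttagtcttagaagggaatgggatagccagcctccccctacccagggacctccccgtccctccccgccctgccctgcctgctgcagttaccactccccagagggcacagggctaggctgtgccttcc
The Kcnk1 window holds 1 half-site, starting 186 bases before the start, and has 49% G and C. The other 3 windows hold none and have 63.7%, 66.7% and 59.7% G and C.

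In whole uterus at D0.5, 2 channel genes were higher and 5 lower in knockout, 9.33% of the 75 tested, beside 4.98% of all 16232 genes (2.02% higher and 2.96% lower). The lower genes were Kcnk5, Kcnk6, Kcnk1, Kcnn4 and Kcnc2, which except Kcnn4 were also lower in knockout LE. The U and LE libraries come in part from the same mice. Kcnk5 was at 15.7, 19.5 and 30.2 CPM as the lowest, median and highest control library and at 6.91, 13.0, 8.88 and 10.7 CPM in knockout, with no overlap (log2 -1.04 ± 0.21, edgeR adjusted p = 0.00468). Kcnk6 was at 19.2, 28.5 and 36.6 CPM in control and 16.9, 14.8, 12.6 and 17.0 CPM in knockout (log2 -0.88 ± 0.21, edgeR adjusted p = 0.0179). Kcnn4 was at 31.4 and 14.5 CPM (log2 -1.11 ± 0.29, edgeR adjusted p = 0.0316), Kcnk1 at 139 and 84.9 CPM (log2 -0.72 ± 0.21, edgeR adjusted p = 0.0487) and Kcnc2 at 16.0 and 5.23 CPM (log2 -1.62 ± 0.46, edgeR adjusted p = 0.0448). The epithelial marker sum was 1521 to 2103 CPM in these knockout and 2555 to 8184 CPM in control libraries, and 3 of 9 epithelial markers were lower. Their part in the lower channel genes was not tested.

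The higher genes in U at D0.5 were Kcnh2 and Kcnj2. Kcnh2, whose current repolarises uterine muscle, was at 19.9, 29.2 and 34.6 CPM in control and 35.0, 93.7, 58.4 and 36.9 CPM in knockout, with no overlap (log2 1.01 ± 0.22, edgeR adjusted p = 0.00999). In control LE its mean was 0.422 CPM, and it was not called there. Kcnj2 was at 5.70, 11.5 and 16.8 CPM in control and 20.3, 19.1, 21.7 and 37.6 CPM in knockout (log2 1.14 ± 0.30, edgeR adjusted p = 0.0277). Of the 7 neutrophil markers 4 were higher in this comparison, with sums of 1760.2 to 3329 CPM against 115 to 1069.9 CPM, and the part of neutrophils in the Kcnj2 result was not tested. Smooth muscle marker sums overlapped, at 6507 to 17559 against 5979 to 12113 CPM.

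These U calls rest on few libraries. With 1 library left out 2 to 7 channel genes were called, 2 without knockout 25, 3 without knockout 27, and 4 without control 3, control 8 or knockout 26. The share of all genes called in these refits is not given here. Kcnh2 was not called without knockout 25 (log2 0.64, adjusted p = 0.0815), Kcnj2 not without knockout 27 (0.87, 0.146) or control 3 (1.12, 0.0546), and Kcnk6 not without knockout 25 or 26 (adjusted p = 0.061 and 0.0693). Kcnn4, Kcnc2 and Kcnk1 lost their calls without any of 6, 12 and 15 libraries, with adjusted p values up to 0.0844, 0.161 and 0.144. Kcnk5 was called in each of these refits.

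Digested uterus at D0.5 gave 5 higher and 4 lower channel genes, 12% of the 75 tested, beside 8.06% of all 16194 genes (3.89% higher and 4.17% lower). Its mice are among those of U, so it is no separate set of animals. Kcnc2 was at 25.0, 31.7, 21.2 and 10.6 CPM in control and 5.12, 7.04 and 4.88 CPM in knockout (log2 -1.96 ± 0.35, edgeR adjusted p = 0.00545). Kcnk5 was at 15.9, 18.2, 27.4 and 19.0 CPM and at 10.9, 10.8 and 9.40 CPM (log2 -0.96 ± 0.19, edgeR adjusted p = 0.0103). Kcnn4 (log2 -1.06 ± 0.23, edgeR adjusted p = 0.015) and Kcnk1 (-0.73 ± 0.21, edgeR adjusted p = 0.0495) were lower too, and none of the 4 had overlapping groups.

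Kcnh2 in DU was at 26.7, 18.9, 24.3 and 33.7 CPM in control and 61.8, 50.5 and 39.6 CPM in knockout (log2 0.97 ± 0.20, edgeR adjusted p = 0.0104). Kcnj2 was at 8.35, 15.8, 14.3 and 14.5 CPM and at 19.7, 24.2 and 38.0 CPM (log2 1.05 ± 0.24, edgeR adjusted p = 0.0207). Kcnab1, a beta subunit of Shaker-type channels, was at 7.64, 4.58, 4.91 and 5.81 CPM and at 10.5, 12.1 and 11.5 CPM (log2 0.97 ± 0.21, edgeR adjusted p = 0.0137). Kcnj8 (log2 0.73 ± 0.18, edgeR adjusted p = 0.0293) and Kcnc4 (1.91 ± 0.51, edgeR adjusted p = 0.036) were also higher, and none of the 5 had overlapping groups. Beside them 3 of 9 smooth muscle markers, 2 of 7 stromal markers and 5 of 7 neutrophil markers were higher in knockout DU, with smooth muscle sums of 13068 to 15250.4 CPM against 7023 to 13319.7 CPM; their part was not tested.

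The DU calls also varied with single libraries. Between 4 and 14 channel genes were called with 1 library left out, 4 without knockout 25 and 14 without control 1, and the share of all genes called in these refits is not given here. Without knockout 25 the calls of Kcnh2 (log2 0.80, adjusted p = 0.0536), Kcnn4 (-1.07, 0.0517), Kcnj8 (0.77, 0.0643), Kcnc4 (1.50, 0.138) and Kcnk1 (-0.63, 0.162) were lost, and Kcnj2 lost its call without knockout 27 (0.74, 0.0962). Kcnj8, Kcnc4 and Kcnk1 lost theirs without 4, 5 and 11 libraries in all. Kcnc2, Kcnk5 and Kcnab1 were called in every refit that left out 1 library.

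At D3.5 no channel gene was called with edgeR in U or in DU, beside 0.0185% of all genes in U, all of them higher, and 0.574% in DU (0.117% higher and 0.457% lower). In each tissue 7 channel genes had an unadjusted p under 0.05, and DESeq2 called 0 in U and 1 in DU. The Kcnn4 and Kcnq1 differences of LE at D3.5 had counterparts of 5.96 and 4.62 CPM, and of 5.97 and 8.29 CPM, in control and knockout U, neither called. The interaction of genotype and day was called for no channel gene in U with edgeR (10 at an unadjusted p under 0.05, 2 with DESeq2, 1 without knockout 26 or without knockout 33), beside 1.43% of all genes (0.943% more positive and 0.487% more negative). It was called for 1 of 75 in DU, Kcnc2 (2.23 ± 0.53, edgeR adjusted p = 0.0498), beside 1.88% of all genes (0.945% more positive and 0.932% more negative). That call was lost without any of 10 of the 13 DU libraries, with adjusted p values up to 0.132.

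**Figure D3:**
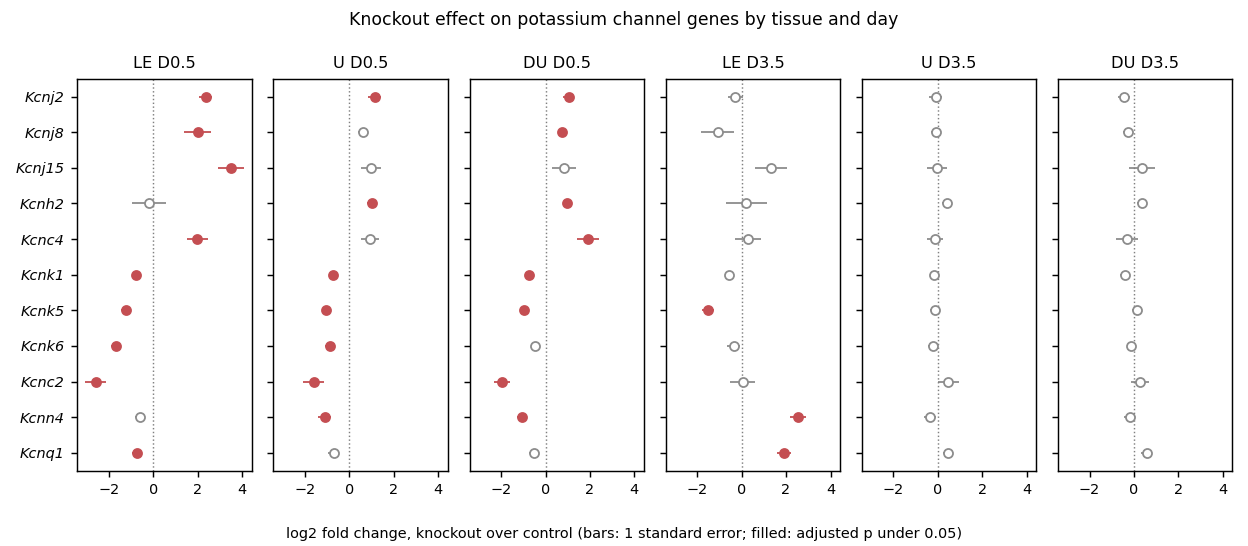
Log2 fold change of knockout over control (horizontal axis) for 11 potassium channel genes (vertical axis) in 6 panels of tissue and day; bars are 1 standard error and filled points have an adjusted p under 0.05. Kcnj2 is filled in all 3 tissues at D0.5 and in none at D3.5, and filled points at D3.5 (Kcnk5, Kcnn4 and Kcnq1) are in LE alone.

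More channel genes were called by day than by genotype in whole uterus. In control U 20 channel genes were higher and 10 lower at D3.5, 40% of the 75 tested, beside 34.2% of all genes (16.2% higher and 18% lower). In control DU 18 were higher and 9 lower, 36% of those tested, beside 34.4% of all genes (15.9% higher and 18.5% lower). Of 25 tested voltage-gated pores 10 rose and 2 fell in U, and of 12 auxiliary subunits 5 rose and 3 fell. The U and DU values come in part from the same mice.

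The Kv4 channels Kcnd2 and Kcnd3, which carry fast transient currents in muscle, rose. Kcnd3 was at 4.98, 11.5 and 18.3 CPM in the 6 control U libraries at D0.5 and at 75.3, 69.7, 75.5, 35.9 and 51.9 CPM at D3.5 (log2 2.41 ± 0.30, edgeR adjusted p = 3.35e-06). In DU it went from 13.6, 11.6, 11.3 and 14.2 CPM to 87.7, 71.4 and 61.5 CPM (log2 2.53 ± 0.16, edgeR adjusted p = 1.88e-07). Kcnd2 went from 1.34 to 15.4 CPM in U (log2 3.51 ± 0.45, edgeR adjusted p = 4.33e-06). Neither gene's day groups overlapped.

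In all, 16 channel genes rose in both control U and control DU. The auxiliary subunit Kcne4 went from 7.45 to 47.8 CPM in U (log2 2.67 ± 0.36, edgeR adjusted p = 8.28e-06) and from 6.90 to 55.2 CPM in DU (log2 2.99 ± 0.28). Kcnc4 rose by log2 2.84 ± 0.37 in U. In DU the 5 rising genes of smallest adjusted p were Kcnd3, Kcne4, Kcnab1 (log2 1.81 ± 0.21), Kcnip3 (1.54 ± 0.18) and Kcnh2 (1.49 ± 0.20), the last going from 25.9 to 73.1 CPM and thus higher at D3.5 in control as well as in knockout at D0.5. In control U 5 of 6 endothelial markers were higher at D3.5, with sums of 681 to 796 against 305 to 404 CPM, and 2 of 5 pericyte markers, with sums of 735 to 1032 against 392 to 591 CPM. Smooth muscle sums overlapped, at 7211 to 11142 against 5979 to 12113 CPM, and 1 of 9 smooth muscle markers was higher. The part of these cells in the rise was not tested.

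Called lower in both were 8 channel genes, Kcnq1, Kcnk1, Kcnc2, Kcnn4, Kcnk2, Kcne3, Kcne1 and Kcnj2. Kcnq1 went from 31.7 to 5.97 CPM in U (log2 -2.41 ± 0.23, edgeR adjusted p = 9.48e-08), Kcnn4 from 31.4 to 5.96 CPM (log2 -2.40 ± 0.29), Kcnc2 from 16.0 to 0.870 CPM (log2 -4.18 ± 0.49) and Kcnk1 from 139 to 42.5 CPM (log2 -1.71 ± 0.20). These 4 are among the leading channel genes of control LE, though the fitted Kcnn4 level over both days was lower in LE than in U. The epithelial marker sum was 2555 to 8184 CPM at D0.5 and 573 to 1359 CPM at D3.5 in control U, and 8 of 9 epithelial markers were lower; their part in the fall of these genes was not tested. The same 4 genes were also lower at D3.5 in control LE, where the epithelial sum was 7021 to 14172 CPM at D0.5 and 5219 to 6524 CPM at D3.5. The part of epithelial content in the fall in either tissue was not tested. Kcnk2, the mechanosensitive leak channel of uterine muscle, fell from 26.8 to 2.69 CPM in U (log2 -3.31 ± 0.51, edgeR adjusted p = 3.66e-05) and from 32.3 to 1.54 CPM in DU (log2 -4.37 ± 0.70, edgeR adjusted p = 0.000318). It reached at most 1.37 CPM in any LE library. Kcne3 fell by log2 -1.85 ± 0.50 in U and -2.43 ± 0.52 in DU (edgeR adjusted p = 0.00671 and 0.00264), and Kcnj2 by -0.78 ± 0.29 and -0.71 ± 0.25 (0.042 and 0.0424). The Kcnj2 calls were lost without any of 7 of 20 U libraries and 9 of 13 DU libraries, with adjusted p values up to 0.105 and 0.142. Kcne1 had mean levels of at most 0.879 CPM (edgeR adjusted p = 0.00873 in U and 0.0395 in DU), and its fitted fold in U ran from log2 -7.56 (without control 13) to -4.49 (without control 3). In DU the Kcne1 call was lost without control 11, 14 or 16 or knockout 25 or 26 (adjusted p up to 0.148), with fitted folds from log2 -7.16 (without control 14) to -3.87 (without control 16). Its DU mean was 0.755 CPM in control at D0.5 and 0.271, 0.249 and 0.0283 CPM in the other groups. Kcne1 thus passed the DU filter only with control libraries of D0.5, in which it is high. Its fall in DU, counted among the 8 genes, is therefore no independent result.

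In the knockout 12 channel genes rose and 9 fell in U, 28% of those tested, beside 25.5% of all genes (10.9% higher and 14.6% lower). In DU 18 rose and 7 fell, 33.3% of those tested, beside 30.2% of all genes (12.9% higher and 17.3% lower). Kcnd3 (log2 2.40 and 2.43 in U and DU), Kcne4 (2.26 and 2.26) and Kcnk5 (1.11 and 1.14) rose in both, Kcnd2 (3.00) was among the first 5 in U and Kcnip3 (0.99) in DU. Kcnj2 fell by log2 -2.02 ± 0.32 in U and -2.20 ± 0.28 in DU, and 6 channel genes fell in both, the others being Kcnn4, Kcnk1, Kcnq1, Kcnk2 and Kcnc2. Kcnk2 fell by log2 -2.44 ± 0.52 in U, where its groups overlapped, and by -1.97 ± 0.65 in DU (edgeR adjusted p = 0.035), a call lost without knockout 25, 26, 32 or 35 (adjusted p up to 0.127) and at log2 -2.59 without knockout 34. Kcnc2 fell by log2 -2.10 ± 0.47 in U and -1.83 ± 0.39 in DU. In knockout U the neutrophil marker sums were 1760 to 3329 CPM at D0.5 and 76.4 to 179 CPM at D3.5. The part of neutrophils in these day differences was not tested.

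**Figure D4:**
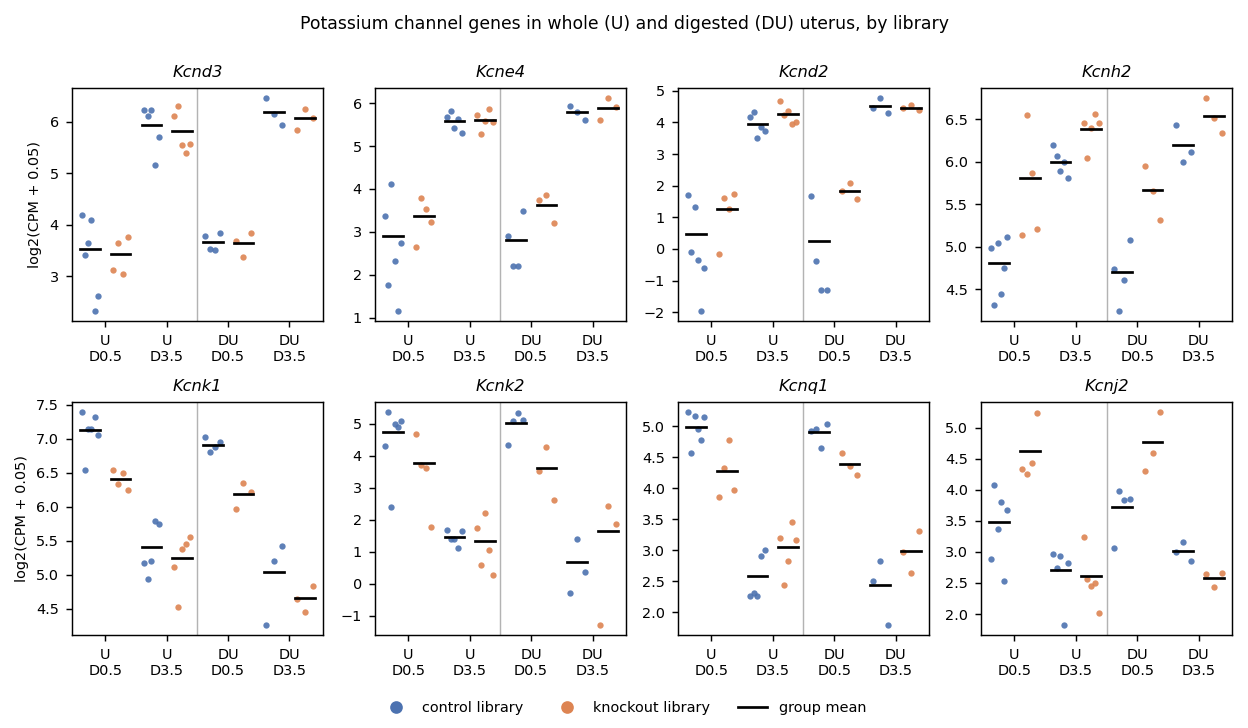
Levels of 8 potassium channel genes as log2(CPM + 0.05) (vertical axis) in U and DU by day and genotype (horizontal axis); each point is 1 library and each bar the group mean. Control Kcnd3 rises from a mean of 11.6 to 61.7 CPM in U and Kcnk2 drops from 26.8 to 2.69 CPM, with the same order in DU.

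Digestion with dispase was examined by setting DU against U over the 4 genotype and day groups. No channel gene was called of 79 tested and no gene of 16782 (0%), with 9 channel genes at an unadjusted p under 0.05, and DESeq2 called no channel gene either. When the mouse entered the fit as a block, over the 13 mice that gave both tissues, 13 channel genes were higher and 6 lower in DU of 78 tested, beside 42.6% of all 16605 genes. Kcnk1, the highest channel gene of both tissues, was lower in DU by log2 -0.39 ± 0.11 without the block (edgeR adjusted p = 0.139). That fit ignores that all 13 DU mice also gave U. The Kcnk1 value with the block is not given here, so this does not show Kcnk1 to be unaffected by digestion.

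Of 2 further lists outside the Kcn symbols, 12 of 14 channel partners and 22 of 26 pumps and cotransporters could be tested in LE. The second list also holds pump regulators and a sodium chloride cotransporter, so its counts are not of potassium carriers alone. At D0.5, 2 partners were higher and 2 lower in knockout LE, where 23.6% of all genes were called. The higher ones were Abcc8 (log2 4.45 ± 0.68, edgeR adjusted p = 2.42e-05), which forms a channel with Kcnj11, and Amigo1, an auxiliary protein of Kcnb channels (log2 0.91 ± 0.23). The lower ones were Lrrc26 and Lrrc55, gamma subunits of BK channels (log2 -2.46 and -1.98). Of the pumps and cotransporters 8 were higher and 2 lower. Atp1b1, the sodium pump beta subunit, rose by log2 1.11 ± 0.18 (edgeR adjusted p = 4.1e-05) and the pump regulator Fxyd5 by log2 2.39 ± 0.40, while the pump regulator Fxyd4 fell by log2 -1.83 ± 0.25 and the sodium chloride cotransporter Slc12a3 by log2 -1.42. At D3.5 Lrrc26 was higher (log2 1.75) and Lrrc55 lower (log2 -2.44), and 2 pump or cotransporter genes were higher, Slc12a8 (log2 2.88) and Fxyd3 (0.86 ± 0.29, edgeR adjusted p = 0.047), and none was lower in edgeR at an adjusted p under 0.05.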

How the data were processed

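Estimated counts per gene and TPM values of 59 libraries were deposited by the authors as tables of 21706 gene symbols; per the submitters' processing notes they used kallisto 0.46.1 and GRCm39, while the annotation and the step from transcripts to genes are not given in the sources used here. Counts were rounded to whole numbers. Each tissue was fitted on its own in edgeR 4.0.16 (R 4.3.3, quasi-likelihood test, TMM scaling, group means as terms) after filterByExpr with a minimum count of 10 and a minimum total of 15. Benjamini-Hochberg adjustment covered all genes tested, and a gene was called when its adjusted p fell below 0.05. The SE is the size of the log2 fold change over the root of F. The biological coefficient of variation was 0.437 (LE), 0.342 (U) and 0.259 (DU). LE and U, and DU and U, were compared in joint fits, whose folds can differ from ratios of the CPM values. Genes near 0 counts have fitted folds that depend on the prior count, so bounds against 3 counts are given where a group had none. These bounds cover counting error only.

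The members and lists were chosen with earlier results of these data known. Named in each knockout comparison were the called members of smallest adjusted p, up to 6 each way whose higher group averaged 0.5 CPM or more (5 each way elsewhere). The 6 members of highest TPM in control libraries of each tissue were also named. So were up to 2 called genes each way of the 2 other lists in LE, channel partners, and pumps and cotransporters. Named after their values were seen were Kcnj8, Kcnk4, Kcnk2 and Kcnk7 in LE at D0.5, Kcna7 and Kcnj11 in LE at D3.5, Kcnk6, Kcnmb4 and Kcna2 in the LE interaction, Kcnn4 in LE against U, and Kcne3, Kcne1, Kcnj2, Kcnc2 and Kcnk2 where they complete the genes lower by day in both U and DU. A few members that the rule names are not reported here. The test was first checked on simulated counts. No 2 libraries of a group agreed within counting noise (lowest chi-square per degree of freedom 9.76 over 134 pairs). A number in a label marks the same mouse across tissues; same-mouse deviations correlated with a median of 0.330 for LE with U (17 mice, lowest -0.217) and 0.399 for DU with U (13 mice, lowest 0.127), and tissue comparisons were repeated with a term for the mouse. Other settings were median-of-ratios size factors, no filter, the Wald test of DESeq2 1.42.0, limma 3.58.1 on log2(TPM + 1) for genes averaging 1 TPM or more, each library left out, and LE without knockout mice 35, 36 and 37. Sequencing batches are not stated in the labels.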

Additional observations from a re-analysis of the deposited data

Results flagged for a closer look

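In 63 groups of 4 to 9 libraries checked for the genes named in the genotype comparisons, 4 held a library far from the others, and chance gives about 1 in 20. Kcnj15 in LE at D0.5 was at 2.54 CPM in control 9 and at 0.0587 to 0.764 CPM in the other controls. Kcne1 in LE at D3.5 was at 0.138 CPM in control 14 and at 0 in the other controls. Kcnj2 in U at D0.5 was at 37.6 CPM in knockout 27 and at 19.1 to 21.7 CPM in the other knockout libraries. Kcnk5 in U at D0.5 was at 30.2 CPM in control 8 and at 15.7 to 20.7 CPM in the other controls.

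The knockout effect differed between D0.5 and D3.5, by a test of the difference itself, for 12 channel genes in LE and 1 in DU. On the log2 scale the differences in LE were 3.14 for Kcnn4, 2.67 for Kcnq1, 8.93 for Kcne1, 5.41 for Kcna7, 2.65 for Kcnc2, 1.31 for Kcnk6, 7.28 for Kcnmb4 and 3.33 for Kcna2, and -2.64 for Kcnj2, -3.88 for Kcnk4, -3.04 for Kcnk2 and -3.07 for Kcnj8. In DU the difference was 2.23 for Kcnc2. Kcne1, Kcna7 and Kcnmb4 had 3, 0 and 0 counts in control LE at D3.5, so that their values depend on the prior count of the fit.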

How the results depend on the processing

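No named gene changed direction under any setting run. Median-of-ratios size factors left 130 of 132 calls of named genes, no filter 128 of 132, DESeq2 132 of 132, limma on log2(TPM + 1) 97 of 115, the mouse block 11 of 11 for LE against U, leaving out 1 library 2618 of 2768 and leaving out knockout 35, 36 and 37 22 of 29. Those mice held the highest Kcne1, Kcna2 and Kcnh1 values, so the loss of calls of these genes was favoured. On the TPM values, which tested fewer channel genes, fewer were called: 9 in place of 15 in LE by genotype at D0.5, 5 in place of 10 at D3.5 (also 5 without knockout 35, 36 and 37), 14 in place of 24 in control LE by day, 33 in place of 53 for LE against U and 0 in place of 1 for the DU interaction, where median-of-ratios size factors also gave 0. On TPM the median of all genes shifted by 0.38 in LE by genotype at D3.5, by 0.42 in knockout LE by day and by -0.32 for LE against U. DESeq2 called 18 in place of 9 in DU at D0.5, 1 in place of 0 in DU at D3.5, 9 in place of 1 for the DU interaction and 2 in place of 0 for the U interaction. With the mouse as a replicate block 19 channel genes were called in place of 0 for DU against U and 56 in place of 53 for LE against U; comparisons within a tissue share no mouse, so no block could be used there. The cause of these differences was not tested. For most of these settings the share of all genes called is not given here. These counts, and those with 1 library left out, therefore cannot be read as changes particular to the channel genes. With 1 library left out the counts ran in LE from 12 to 17 by genotype at D0.5, 7 to 12 at D3.5, 20 to 26 by day in control, 14 to 20 by day in knockout and 10 to 14 for the interaction. In U they ran from 2 to 7 by genotype at D0.5, stayed at 0 at D3.5, and ran from 27 to 31 by day in control, 20 to 24 by day in knockout and 0 to 1 for the interaction, 1 without knockout 26 or knockout 33. In DU they ran from 4 to 14 by genotype at D0.5, stayed at 0 at D3.5, and ran from 23 to 30 by day in control, 18 to 28 by day in knockout and 0 to 7 for the interaction, 7 without control 1. They ran from 51 to 55 for LE against U and stayed at 0 for DU against U. Depth limits the genes near 0 in LE, such as Kcne1, Kcna7, Kcnj11 and Kcnmb4, most.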
